A study of Arabidopsis thaliana with 6 samples.

Results

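The lipid transfer protein genes LTP1 to LTP6 and the 4 genes of the AZI1 cluster of Arabidopsis thaliana are described here, 10 genes of the 33557 loci in the deposited expression table. They were picked by locus identifier: LTP1 (AT2G38540), LTP2 (AT2G38530), LTP3 (AT5G59320), LTP4 (AT5G59310), LTP5 (AT3G51600) and LTP6 (AT3G08770), then AZI1 (AT4G12470), EARLI1 (AT4G12480) and the neighbouring loci AT4G12490 and AT4G12500. The choice was made with the genotype difference of these same values known, so the differences below describe the genes and are not tests. All 10 genes passed the filter on low values, which asks for at least 1 FPKM (sequenced fragments of a gene, corrected for the length of its transcript and the size of the library) in at least 1 genotype.

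The tested plants were the quadruple mutant camta1/2/3/sid2, set against the wild type, both in the Col-0 accession. CAMTA1 to CAMTA3 belong to a family of transcription factors that bind calmodulin, and SID2 encodes isochorismate synthase 1 (ICS1), the main enzyme of salicylic acid synthesis in immunity. Per the labels, mutant and wild-type plants alike were grown in soil at 22 °C in a 12 h photoperiod at a light intensity between 100 and 120 µmol m-2 s-1. Whole aerial parts were taken at 21 days after germination and at zeitgeber time (ZT) 12. The labels name 3 libraries of the mutant and 3 of the wild type, but the table gives 1 FPKM value per genotype and locus. No standard deviation, replicate number or p-value can therefore be given for any difference, and the depth is unknown. The labels name no alleles, and a plant with sid2 alone or with the camta mutations alone is not analysed here, so the mutated genes cannot be told apart as sources of a difference.

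Lipid transfer proteins are small secreted proteins whose fold is held by a conserved set of cysteines around a cavity that binds fatty acids and other lipids. They are found mostly in the wall of epidermal cells, where they have been linked to the cuticle, and as a family they are counted among the pathogenesis-related proteins (PR-14). AZI1 and its neighbours join a proline-rich stretch to a domain of the same fold. AZI1 is needed for the systemic immunity that azelaic acid primes, EARLI1 was found as a gene induced by aluminium and by cold, and both have been linked to the movement of azelaic acid between tissues.

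Of the 10 genes, 3 were at least 2-fold lower in the mutant on the log2(FPKM + 1) scale: LTP4, LTP3 and AZI1. None of the 10 was at least 2-fold higher. Among all 18547 analysed loci 0.69% were at least 2-fold lower and 0.787% at least 2-fold higher. Since these genes were picked on this contrast, nothing is read from the excess. Differences of less than 2-fold were seen for 7 of the 10 genes and for 98.5% of all analysed loci. In all, 6 genes were lower and 4 higher, where 64.6% of all analysed loci were lower and 35.4% higher by any amount. The median log2 ratio (mutant minus wild type, of FPKM + 1) was -0.44 over the 10 genes and -0.06 over all analysed loci.

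**Figure D1:**
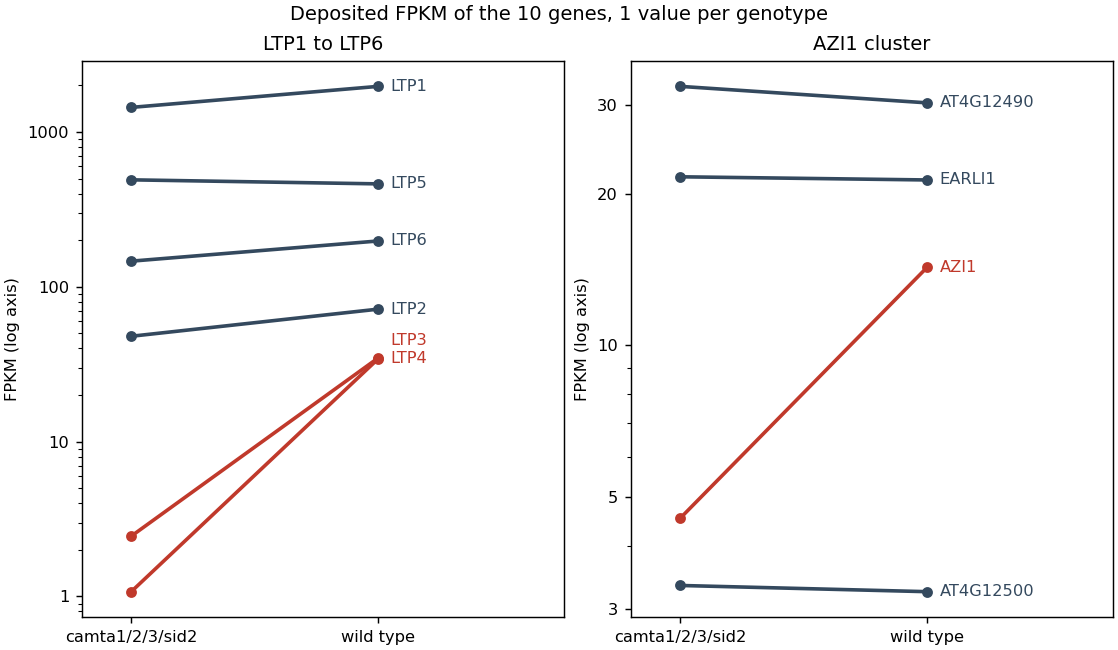
FPKM of LTP1 to LTP6 (left) and of the AZI1 cluster (right) on log axes, 1 deposited value per genotype, with camta1/2/3/sid2 to the left of the wild type and a line joining the values of a gene. Red marks the genes at least 2-fold lower in the mutant: LTP3 stood at 2.45 and LTP4 at 1.07 FPKM in the mutant against 34.8 and 34.4 FPKM in the wild type, and AZI1 at 4.53 FPKM in the mutant against 14.3 FPKM in the wild type, while the other lines are close to level.

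LTP4 and LTP3 had the largest differences of the 10 genes. Both are known from earlier work to be induced by abscisic acid, and LTP3 has been placed under the transcription factor MYB96. LTP4 stood at 1.07 FPKM in the mutant and 34.4 FPKM in the wild type, which is 32.0-fold lower in the mutant and a log2 ratio of -4.09. LTP3 stood at 2.45 FPKM in the mutant and 34.8 FPKM in the wild type, 14.2-fold lower, with a log2 ratio of -3.37. Their wild-type levels were thus nearly equal, and their mutant levels were close to the 1 FPKM limit, with LTP3 the higher. Among all 18547 analysed loci, which include loci at 0 in the mutant, LTP4 ranked 12th and LTP3 17th from the lowest log2 ratio. Among the 18464 analysed loci above 0 in both genotypes, LTP4 had the second lowest log2 ratio and LTP3 the third lowest. The lowest of these was the auxin response factor gene ARF1 (AT1G59750), at 0.151 FPKM in the mutant and 24.5 FPKM in the wild type.

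LTP4 and LTP3 lie head to head on chromosome 5, LTP4 on the minus strand and LTP3 on the plus strand, with 2996 bases between their annotated starts in the RefSeq annotation of TAIR10.1. Each has 2 exons. Their coding sequences were identical at 84.5% of aligned positions, and the longest run shared by their transcripts was 44 bases. A read that lies within such a run cannot be assigned to one copy, and the sources used here do not say how the authors treated reads that map to several loci. The sum of both genes, which depends less on that division, was 3.52 FPKM in the mutant and 69.2 FPKM in the wild type, 19.6-fold lower in the mutant.

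The 250 bases upstream of both genes are shown because these genes had nearly the same level in the wild type and were lower together. They were read from the RefSeq TAIR10.1 genome and are written 5′ to 3′ on the strand of the gene, up to the base before the annotated start, at chr5:23925958-23926207 (minus strand) for LTP4 and chr5:23928704-23928953 (plus strand) for LTP3. Capitals mark matches, on either strand, to any of 5 motifs. CGCG is the core of a CAMTA element, and other forms of CAMTA element were not searched for as such. ACGTG is the core of the abscisic acid response element. CCGAC is the core of the cold and drought element bound by CBF factors. TTGAC is the core of the W box of WRKY factors, and TGACG that of the TGA factor element. TTGAC and TGACG can overlap, as they do upstream of LTP4.
LTP4: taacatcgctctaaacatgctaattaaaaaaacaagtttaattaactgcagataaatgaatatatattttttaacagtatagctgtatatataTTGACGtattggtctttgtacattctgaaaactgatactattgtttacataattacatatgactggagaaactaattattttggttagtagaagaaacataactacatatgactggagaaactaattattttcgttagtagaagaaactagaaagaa
LTP3: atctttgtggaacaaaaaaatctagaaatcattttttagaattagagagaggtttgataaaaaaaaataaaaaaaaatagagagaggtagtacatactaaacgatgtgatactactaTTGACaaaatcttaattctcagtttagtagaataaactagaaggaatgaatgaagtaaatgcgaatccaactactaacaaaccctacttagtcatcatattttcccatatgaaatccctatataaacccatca
The LTP4 window holds TTGAC and TGACG in 1 overlapping match that begins 157 bases upstream of the start, and the LTP3 window holds TTGAC once, 133 bases upstream. TTGAC was found in 44.9% of the same windows of all 27443 nuclear protein-coding genes and TGACG in 18.6%, so a match is common. The windows share no identical run longer than 9 bases. They were not aligned, so stretches alike but for single mismatches are not counted. Such a stretch ends the LTP4 window and lies further upstream in that of LTP3. The LTP4 window repeats a run of 29 bases, with copies that begin 104 and 54 bases upstream of the start, whereas the longest repeated run upstream of LTP3 was 11 bases.

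Across all 10 genes the CAMTA element core CGCG was absent from the 250-base windows, where 10.1% of all such windows hold it, and also from windows of 1000 bases, where 32.2% do. This says only that the letters CGCG are not in these windows. Whether CAMTA factors bind there through other letters was not tested. The abscisic acid element core ACGTG lay in the 1000-base windows of 7 of the 10 genes, against 54.4% of all genes. LTP4 had 5 matches there, LTP1 had 3, LTP3 and LTP5 had 2 each, and LTP2, AZI1 and AT4G12500 had 1 each. LTP6, EARLI1 and AT4G12490 had none. Matches were counted on each strand, so a site that reads CACGTG gives 2 of them. The cold element core CCGAC lay in those windows of 2 genes, LTP2 with 3 copies and AT4G12500 with 1, against 37.4% of all genes.

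Next to LTP3 lies AT5G59330, annotated as another protein of the lipid-transfer fold with 87 sense codons, against 115 in LTP3. It was lower too, at 5.86 FPKM in the mutant and 11.8 FPKM in the wild type, a log2 ratio of -0.90. Its coding sequence was identical to that of LTP3 at 63.8% of aligned positions, and the longest run shared by the transcripts was 34 bases. The other analysed neighbours did not share the size of the difference. AT5G59305, directly beside LTP4, was at 1.10 FPKM in the mutant and 1.34 FPKM in the wild type. Beyond AT5G59330, WOX2 was under the filter, and AT5G59350 was at 16.9 FPKM in the mutant and 13.6 FPKM in the wild type. UBC7 (AT5G59300), a ubiquitin-conjugating enzyme on the LTP4 side, was at 38.7 FPKM in the mutant and 38.5 FPKM in the wild type, and UXS3 (AT5G59290), a UDP-glucuronic acid decarboxylase, at 50.6 FPKM in the mutant and 56.8 FPKM in the wild type.

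**Figure D2:**
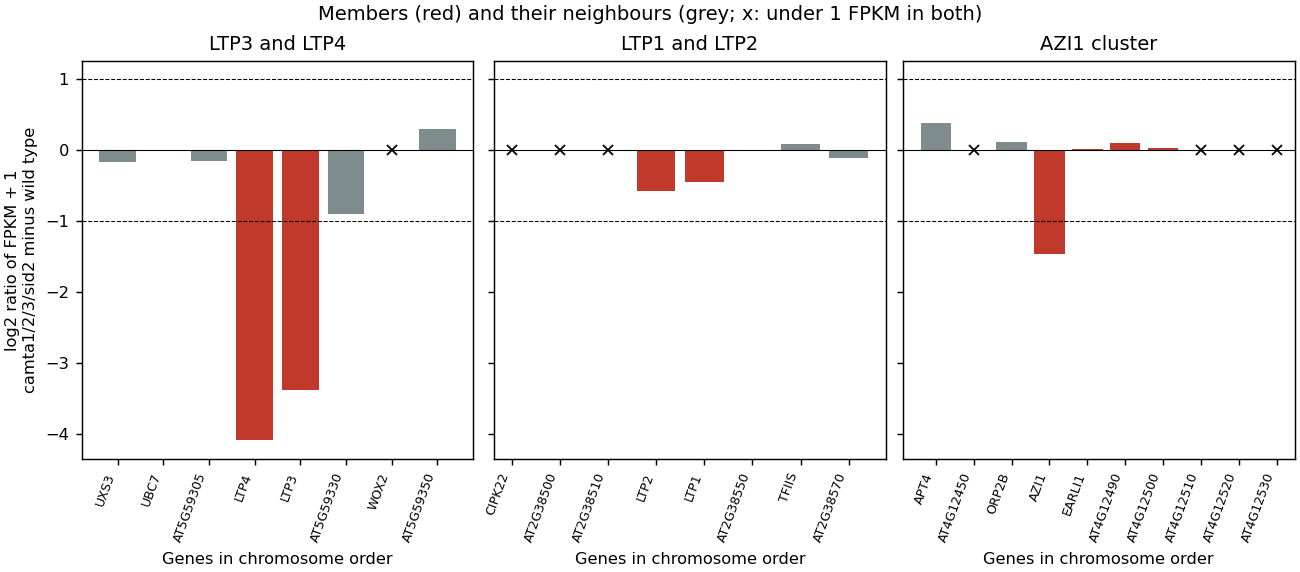
Log2 ratio of FPKM + 1 (camta1/2/3/sid2 minus wild type) for genes in chromosome order around LTP3 and LTP4, LTP1 and LTP2, and the AZI1 cluster. Red bars are the described genes, grey bars their 3 protein-coding neighbours on each side in the table, crosses mark genes under 1 FPKM in both genotypes, bars too short to see are near 0, and dashed lines mark a 2-fold difference; among the grey bars AT5G59330 is the lowest, at -0.90.

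LTP1 is by level the main gene of the family in these plants. It was at 1441 FPKM in the mutant and 1971 FPKM in the wild type, 1.37-fold lower in the mutant, and ranked 72nd among the analysed loci in the mutant and 53rd in the wild type. LTP1 is known as a gene of the epidermis whose product can bind calmodulin. It took 67.7% of the summed FPKM of LTP1 to LTP6 in the mutant and 71.1% in the wild type. That sum was 2130 FPKM in the mutant and 2772 FPKM in the wild type, and LTP1 accounts for most of its difference.

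LTP2, which lies 890 bases before LTP1 on the same strand, has been linked to the integrity of the cuticle in dark-grown seedlings. It was at 47.9 FPKM in the mutant and 71.7 FPKM in the wild type, 1.50-fold lower, with a log2 ratio of -0.57 beside -0.45 for LTP1. LTP1 and LTP2 are identical at 82.4% of aligned coding positions and share a run of 40 bases. Their values too may depend on how shared reads were divided, which turns on a read length not given here. Summed, they were at 1489 FPKM in the mutant and 2043 FPKM in the wild type. The gene that follows LTP1, AT2G38550, was at 49.9 FPKM in the mutant and 50.4 FPKM in the wild type.

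LTP6 and LTP5 lie apart from each other on chromosome 3, and LTP5 adjoins LTP12 (AT3G51590), which was listed at 0 in both genotypes. LTP6 was at 146 FPKM in the mutant and 198 FPKM in the wild type, 1.35-fold lower, with a log2 ratio of -0.43. LTP5, whose product has been linked to pollen tube growth, was at 491 FPKM in the mutant and 462 FPKM in the wild type, 1.06-fold higher, and was the one LTP of the 6 above its wild-type value. Its share of the summed LTP1 to LTP6 level was 23.0% in the mutant and 16.7% in the wild type. LTP5 and LTP6 share no transcript run longer than 17 bases with LTP1 to LTP4, so shared reads bear less on their values. The order of levels was the same in both genotypes, from LTP1 through LTP5, LTP6, LTP2 and LTP3 to LTP4, although LTP3 and LTP4 were too close in the wild type to be ordered without replicates.

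In whole shoots, fewer cells of a type and less RNA per cell cannot be told apart. Of the 5 epidermal markers, 4 were nearly level: ATML1, FIDDLEHEAD (KCS10), KCS6 and ABCG12 had log2 ratios of 0.02, 0.07, 0.02 and -0.04. The remaining one, PDF1 (AT2G42840), a proline-rich protein of the outer cell layer, was at 203 FPKM in the mutant and 288 FPKM in the wild type, a log2 ratio of -0.50, close to those of LTP1, LTP2 and LTP6. Summed, the epidermal markers were at 509 FPKM in the mutant and 589 FPKM in the wild type, and none was at 0. Whether PDF1 and the LTP genes share a source of their differences was not tested.

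AZI1 was the one gene of its cluster with a 2-fold difference. It was at 4.53 FPKM in the mutant and 14.3 FPKM in the wild type, 3.16-fold lower in the mutant, with a log2 ratio of -1.47. The other 3 genes were at or slightly above their wild-type values. EARLI1 was at 21.6 FPKM in the mutant and 21.3 FPKM in the wild type. AT4G12490 was at 32.7 FPKM in the mutant and 30.4 FPKM in the wild type, and AT4G12500 at 3.33 FPKM in the mutant and 3.24 FPKM in the wild type. The order of levels was the same in both genotypes, from AT4G12490 through EARLI1 and AZI1 to AT4G12500. AZI1 gave 7.28% of the summed FPKM of the cluster in the mutant and 20.7% in the wild type.

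The 4 genes stand in a row within 13869 bases on the minus strand of chromosome 4, each with a single exon. Of their sense codons, between 14.9% (AZI1) and 18.1% (AT4G12490) encode proline, against 3.39% to 8.04% in LTP1 to LTP6. AZI1 is identical to EARLI1 at 84.3% of aligned coding positions, to AT4G12500 at 78.6% and to AT4G12490 at 76.6%, and the longest run it shares with any of them is 42 bases, with AT4G12490. AT4G12490 and AT4G12500 are the closest copies, at 90.3%, with a shared run of 87 bases. Summed over the cluster, which depends less on the division of shared reads, the level was 62.2 FPKM in the mutant and 69.2 FPKM in the wild type, 1.11-fold lower. Thus the sum of the cluster was close between genotypes while its AZI1 value was not. The annotation also places small open reading frames on the other strand within the bounds of EARLI1 and AT4G12490, which are not analysed here.

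The windows upstream of AZI1 (chr4:7401952-7402201, minus strand) and EARLI1 (chr4:7406995-7407244, minus strand) are shown side by side because these adjoining copies differed in their response. Build, direction, length and capitals are as above.
AZI1: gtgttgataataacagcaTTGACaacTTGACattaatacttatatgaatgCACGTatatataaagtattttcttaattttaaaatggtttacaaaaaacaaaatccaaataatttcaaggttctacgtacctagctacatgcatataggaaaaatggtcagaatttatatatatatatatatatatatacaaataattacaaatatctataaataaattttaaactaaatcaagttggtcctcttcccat
EARLI1: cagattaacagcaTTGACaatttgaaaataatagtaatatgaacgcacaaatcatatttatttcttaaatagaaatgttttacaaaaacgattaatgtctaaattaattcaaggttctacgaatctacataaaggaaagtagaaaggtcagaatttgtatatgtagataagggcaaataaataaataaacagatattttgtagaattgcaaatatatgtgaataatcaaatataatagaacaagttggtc
The windows share runs of up to 15 bases, longer than the 9 bases shared upstream of LTP3 and LTP4. AZI1 has TTGAC at 2 places, beginning 232 and 224 bases upstream of the start, and the abscisic acid core, on the other strand, at 200 bases upstream. EARLI1 has TTGAC at 1 place, 237 bases upstream, and no abscisic acid core. ACGTG was found in 22.9% of the windows of all genes and in those of 3 of the 10 genes described. These are AZI1, LTP2 and AT4G12500, the last of which was level between genotypes. The 250-base windows of LTP3 and LTP4 hold none. Whether the core bears on any difference was not tested.

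**Figure D3:**
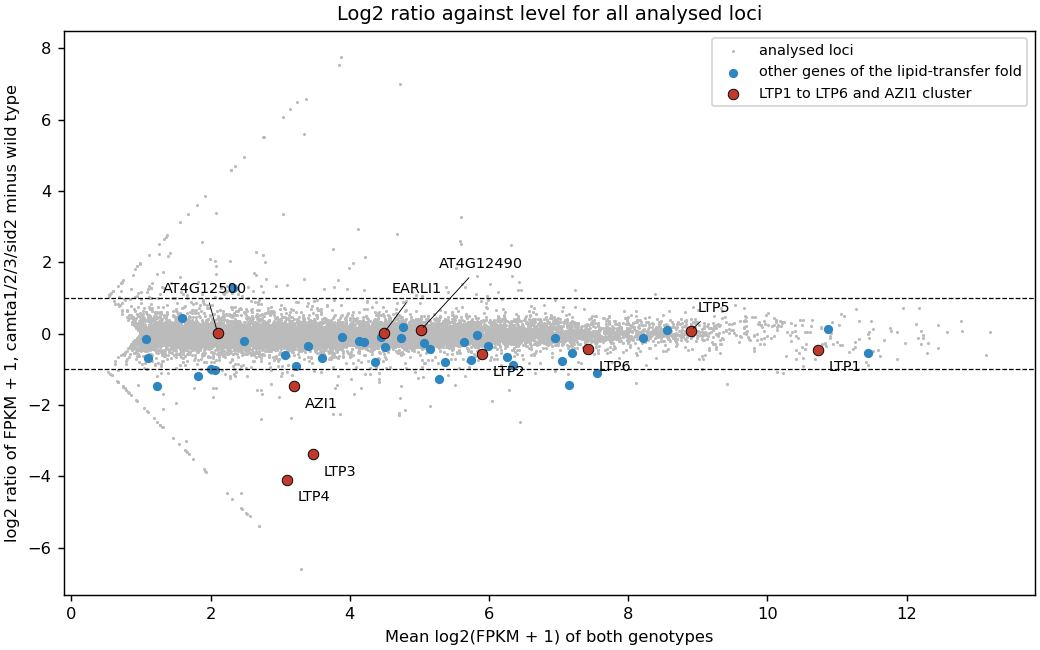
Log2 ratio of FPKM + 1 (camta1/2/3/sid2 minus wild type) against mean log2(FPKM + 1) for the 18547 analysed loci (grey), with the 10 described genes in red and the other 40 analysed genes of the lipid-transfer fold in blue. Dashed lines mark a 2-fold difference; the grey points on the lower diagonal are loci listed at 0 in the mutant, LTP3 and LTP4 lie apart from the bulk below -3, and 35 of the 40 blue points are below 0.

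By the pattern over both genotype values (Euclidean distance of log2(FPKM + 1)), the locus nearest to LTP4 was LTP3, at a distance of 0.74. ARF1 came next, at 0.97. The following 3 were the small RNA loci AT5G66567, MIR825 and AT1G28820, which were listed at 0 in the mutant and at 33.9, 32.0 and 31.7 FPKM in the wild type. Likeness over 2 values says little beyond a similar level and difference.

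Most other genes of the lipid-transfer fold were also lower in the mutant, none by as much as LTP3 or LTP4. RefSeq names 110 such genes in the table besides the described ones, of which 40 were analysed, 46 were listed at 0 in both genotypes and the rest lay under 1 FPKM. Of the 40, 35 were lower and 5 higher, and the median log2 ratio was -0.40. On the log2(FPKM + 1) scale, 6 of them were at least 2-fold lower and 1 at least 2-fold higher. By plain FPKM, AT4G33550, AT4G15160 and AT5G59330 were also lower by more than 2-fold, at 2.50-fold, 2.46-fold and 2.01-fold. As shares, 87.5% were lower and 15% at least 2-fold lower on the log2(FPKM + 1) scale, beside 64.6% and 0.69% of all analysed loci. At least 2-fold higher were 2.5%, beside 0.787% of all analysed loci. The group was put together after values had been seen. Transcripts of the fold are short, with a median of 872 bases over the 40 against 1671 over all analysed loci with a length. Over all analysed loci with a length, the median log2 ratio was -0.03 for loci under 600 bases, -0.04 from 600 to 1000 and -0.08 from 2000 up. Of loci under 600 bases, 5.56% were at least 2-fold lower and 6.79% at least 2-fold higher. From 600 to 1000 bases, where the median length of the fold lies, these shares were 1.06% and 0.766%. From 1000 to 2000 bases they were 0.293% and 0.496%. The part of length in the lower median of the fold was not tested. Within the fold the median was -0.40 for the 26 genes under 1000 bases and -0.48 for the 14 longer ones. At least 2-fold lower were 7.69% of the 26 and 28.6% of the 14.

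A second row of such genes, AT4G22460 to AT4G22520, lies on the same chromosome as the AZI1 cluster. All 7 of its analysed genes were lower, by a median of -0.87 on the log2 scale, and 3 (42.9%) passed the 2-fold limit. Among all analysed loci 64.6% were lower and 0.69% at least 2-fold lower. AT4G22485 was at 127 FPKM in the mutant and 273 FPKM in the wild type, and AT4G22505 at 85.3 FPKM in the mutant and 232 FPKM in the wild type. Each of these genes but AT4G22490 overlaps an annotated gene on the other strand, and as the sources used here do not say whether strand was used, the reads of overlapping genes cannot be told apart. AT4G22490, which overlaps none, was at 100.1 FPKM in the mutant and 172 FPKM in the wild type. This row was singled out after its values were seen.

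**Figure D4:**
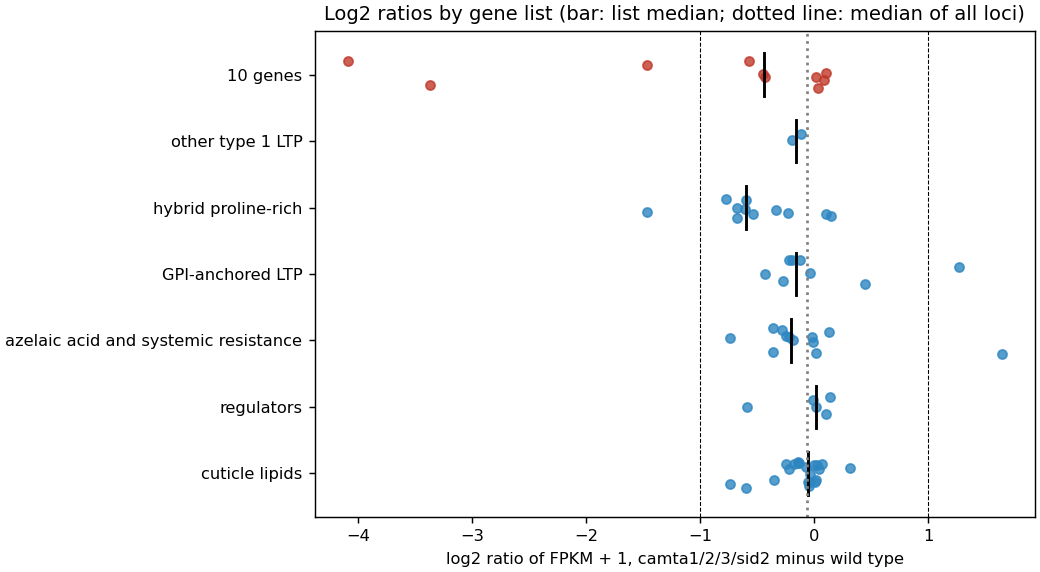
Log2 ratio of FPKM + 1 (camta1/2/3/sid2 minus wild type) for the analysed members of each gene list, with a bar at the list median, a dotted line at the median of all analysed loci (-0.06) and dashed lines at a 2-fold difference. The hybrid proline-rich list has the lowest median, at -0.59, and the medians of the cuticle lipid and regulator lists are -0.05 and 0.02.

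Related gene lists were compared in the same way. The LTP, hybrid proline-rich and systemic resistance lists share genes with the fold counted above, so their counts are not separate from it. AT4G22470, for example, is counted in the fold, in the row AT4G22460 to AT4G22520 and in the hybrid proline-rich list. Of 9 further type 1 LTP genes (LTP7 to LTP15), 5 were listed at 0 in both genotypes and 2 were analysed: LTP7 (AT2G15050) at 284 FPKM in the mutant and 307 FPKM in the wild type, and LTP10 (AT5G01870) at 4.20 FPKM in the mutant and 4.97 FPKM in the wild type. Of 11 analysed hybrid proline-rich genes, the wider class to which AZI1 belongs, 9 (81.8%) were lower. On the log2(FPKM + 1) scale 1 (9.09%) was at least 2-fold lower. The shares of all analysed loci were 64.6% and 0.69%. The median was -0.59, and -0.23 without the filter, which adds 8 genes of low value. The gene at least 2-fold lower on that scale, AT4G22470, was at 0.409 FPKM in the mutant and 2.91 FPKM in the wild type. AT1G62500 was at 8.55 FPKM in the mutant and 14.3 FPKM in the wild type. AT4G15160 was at 0.696 FPKM in the mutant and 1.71 FPKM in the wild type. That is 2.46-fold lower by plain FPKM but within 2-fold on the log2(FPKM + 1) scale.

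Of 8 analysed GPI-anchored LTP genes, whose products are tied to the plasma membrane by a lipid anchor, 6 (75%) were lower and 2 higher. Among all analysed loci 64.6% were lower. The median was -0.16 (-0.10 without the filter). LTPG5 (AT3G22600) was the single analysed gene of the fold at least 2-fold higher, beside 0.787% of all analysed loci. It was at 6.77 FPKM in the mutant and 2.22 FPKM in the wild type. LTPG20 (AT3G22620) was at 2.50 FPKM in the mutant and 1.58 FPKM in the wild type. XYP2 (AT2G13820), a xylogen protein of vessel formation, was at 29.5 FPKM in the mutant and 40.2 FPKM in the wild type, and AT2G44300 at 29.5 FPKM in the mutant and 35.9 FPKM in the wild type.

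Of 12 analysed genes of azelaic acid signalling and systemic resistance, 9 (75%) were lower and 3 higher, beside 64.6% of all analysed loci lower, and the middle log2 ratio was -0.21. None was at least 2-fold lower, as were 0.69% of all analysed loci, and 1 was at least 2-fold higher, as were 0.787% of all analysed loci. DIR1 (AT5G48485), the lipid transfer protein that carries systemic signals and binds AZI1, was at 19.0 FPKM in the mutant and 24.7 FPKM in the wild type, and its relative AT5G48490 at 16.0 FPKM in the mutant and 18.9 FPKM in the wild type. GLY1 (AT2G40690) and NHO1 (AT1G80460), which act in glycerol-3-phosphate metabolism, had log2 ratios of 0.13 and -0.02. The plasmodesmal proteins PDLP1 (AT5G43980) and PDLP5 (AT1G70690) had log2 ratios of -0.19 and -0.01. MPK3 (AT3G45640) and MPK6 (AT2G43790), kinases linked to AZI1 function, had log2 ratios of 0.02 and -0.25.

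The list also holds the enzymes that make N-hydroxypipecolic acid, a signal of systemic resistance. FMO1 (AT1G19250), the last of them and the gene at least 2-fold higher, was at 2.27 FPKM in the mutant and 0.0453 FPKM in the wild type. ALD1 (AT2G13810), the first, was under the limit of 1 FPKM, at 0.977 FPKM in the mutant and 0.142 FPKM in the wild type, while SARD4 (AT5G52810), the reductase between them, was at 17.4 FPKM in the mutant and 22.7 FPKM in the wild type. Among the rest of the list, AT5G55450, also of the lipid-transfer fold, was at 40.3 FPKM in the mutant and 67.9 FPKM in the wild type, and AT4G23670 at 585 FPKM in the mutant and 714 FPKM in the wild type.

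Of 5 analysed regulators of LTP and wax genes, 3 were higher and 2 (40%) lower, beside 64.6% of all analysed loci lower. None differed by 2-fold, as for 98.5% of all analysed loci, and the median was 0.02. MYB96 (AT5G62470), the activator of LTP3 and of wax synthesis, was at 6.37 FPKM in the mutant and 5.87 FPKM in the wild type. MYB94 (AT3G47600) was at 7.60 FPKM in the mutant and 6.83 FPKM in the wild type. MYB30 (AT3G28910), which controls very-long-chain fatty acids in the hypersensitive response, was at 5.63 FPKM in the mutant and 8.99 FPKM in the wild type. Its log2 ratio of -0.59 was the largest difference of the 5. WIN1 (AT1G15360), an activator of cutin and wax genes, was at 0.102 FPKM in the mutant and 0.0336 FPKM in the wild type, under the filter. The epidermal identity factors ATML1 (AT4G21750) and PDF2 (AT4G04890) had log2 ratios of 0.02 and -0.01.

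Of 21 analysed genes of cuticle lipid synthesis and export, 15 (71.4%) were lower and 6 higher, beside 64.6% of all analysed loci lower. None differed by 2-fold, and 98.5% of all analysed loci did not either. The median was -0.05, near that of all loci, or 0.0094 with ratios scaled to a median of 0 over all loci. CER1 (AT1G02205), the enzyme of alkane formation, was at 27.0 FPKM in the mutant and 45.9 FPKM in the wild type, a log2 ratio of -0.74, while its partner CER3 (AT5G57800) was at 23.4 FPKM in the mutant and 18.7 FPKM in the wild type. The fatty acid hydroxylase CYP86A4 (AT1G01600) was at 2.32 FPKM in the mutant and 4.02 FPKM in the wild type, and the wax ester synthase WSD1 (AT5G37300) at 1.42 FPKM in the mutant and 2.09 FPKM in the wild type.

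Facts of the whole table bear on all of these values. Of the targeted genes, CAMTA1 (AT5G09410) was at 3.30 FPKM in the mutant and 13.6 FPKM in the wild type, CAMTA3 (AT2G22300) at 2.68 FPKM in the mutant and 9.94 FPKM in the wild type, and CAMTA2 (AT5G64220) at 6.32 FPKM in the mutant and 9.25 FPKM in the wild type. ICS1 (AT1G74710) was at 3.73 FPKM in the mutant and 4.56 FPKM in the wild type. Summed FPKM was 891178 in the mutant and 908640 in the wild type. The 3 leaf mesophyll markers differed in direction and by more than LTP1, LTP2 and LTP6 did: CAB3 (AT1G29910) was at 775 FPKM in the mutant and 1623 FPKM in the wild type, RBCS2B (AT5G38420) at 5063 FPKM in the mutant and 3096 FPKM in the wild type, and RCA (AT2G39730) at 3121 FPKM in the mutant and 1944 FPKM in the wild type. Their part in the differences of the LTP genes was not tested. The 2 flower markers and 2 seed markers were under 1 FPKM in both genotypes, and of the 3 root markers MRN1 was listed at 0, CASP1 was at 1.57 FPKM in the mutant and 0.940 FPKM in the wild type and PYK10 at 55.8 FPKM in the mutant and 51.6 FPKM in the wild type.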

How the data were processed

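Messenger RNA was sequenced from 3 mutant and 3 wild-type libraries of aerial parts. The authors deposited 1 table of FPKM values with 1 value per genotype, per the file headers, and the sources used here do not say how libraries were combined. Per the submitters' processing notes, the tools were TopHat 1.4.1, Cufflinks 2.1.1 and Cuffdiff, and the build TAIR10.

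The log2 ratio is log2(FPKM + 1) of the mutant minus that of the wild type, computed here for all loci. The pseudocount of 1 understates differences of low genes, so stated folds are plain FPKM ratios. Counts of loci at least 2-fold higher or lower use the log2(FPKM + 1) scale. Loci with at least 1 FPKM in either genotype were analysed. With 1 value per genotype the planned limma test could not be run, and nothing was tested. The procedure was tested on simulated data.

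Names (97.8% of loci matched), gene models and sequences came from RefSeq TAIR10.1; the table has no coordinates, and the gene models the authors counted on may differ. Sequence identity was computed on coding bases (global alignment, Biopython 1.88), because no protein table was used, in place of the planned protein alignment. Python 3.11.15, numpy 2.4.6, pandas 2.3.3 and matplotlib 3.10.9 were used.

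The genes and lists were chosen with earlier results of these data known. Named besides the 10 genes are their 3 nearest protein-coding neighbours on each side where a result turns on them, up to 4 genes of highest absolute log2 ratio per list, all systemic resistance and regulator genes, the 5 loci nearest to LTP4 and the targeted genes. Alternatives were pseudocounts of 0.1 and 0.5, no filter, a filter of 5 FPKM, scaling to a median of 0, nuclear protein-coding loci only, and sums of neighbouring copies.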

Additional observations from a re-analysis of the deposited data

How the results depend on the processing

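No paired analysis was possible because the table gives 1 combined value per genotype, and for the same reason no library could be left out. Of the 133 recomputed values, 123 kept their direction and their side of the 2-fold limit (counts: stayed within 1.5 times). Over pseudocounts, filters, scaling and the restriction to nuclear protein-coding loci, the log2 ratio ranged from -4.88 to -4.03 for LTP4. It ranged from -3.77 to -3.31 for LTP3 and from -1.64 to -1.41 for AZI1. AT4G12500 has no value under the filter of 5 FPKM. All 10 genes kept their direction, but among these settings only scaling could have changed it. A pseudocount cannot reverse a ratio, and the filters and the restriction leave the ratio of a gene unchanged. Part of the 123 kept values were therefore fixed in advance. Only summing the copies of the AZI1 cluster changed the calls in it: the sum had a log2 ratio of -0.15, which is within 2-fold, unlike AZI1, and below 0, unlike EARLI1, AT4G12490 and AT4G12500; this follows from adding 3 level genes to AZI1. With ratios scaled to a median of 0, the median of the cuticle lipid list became 0.0094 and that of the flanking genes 0.0405, against -0.05 and -0.02 unscaled. Without the filter the median of the flanking genes was 0.0 and that of the hybrid proline-rich list -0.23, of the GPI-anchored list -0.10 and of the regulators 0.05, since genes at or near 0 FPKM enter. Of all loci, 128 were at least 2-fold lower and 146 at least 2-fold higher; the lower count was 205 with a pseudocount of 0.1 and 85 for nuclear protein-coding loci, and the higher count was 91 with a filter of 5 FPKM. The unknown depth limits every low value, LTP3 and LTP4 in the mutant among them.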

Other observations

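Of the 6 further genes of the lipid-transfer fold that were at least 2-fold lower on the log2(FPKM + 1) scale, 3 lie outside the row AT4G22460 to AT4G22520. AT3G22142 was at 24.0 FPKM in the mutant and 59.9 FPKM in the wild type. AT2G37870 was at 1.34 FPKM in the mutant and 4.34 FPKM in the wild type, and AT3G53980 at 1.94 FPKM in the mutant and 4.99 FPKM in the wild type. They were chosen after their values were seen, and with 1 value per genotype none was tested.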
